A study of Mus musculus with 136 samples.

Results

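H3K27me3 regions that carried H3K4me3 but no SUZ12 were examined in WT mouse embryonic stem cells. Of the 41869 H3K27me3 regions listed for WT clone 410, 38188 were shorter than 20000 bp. Members were chosen by their listed H3K27me3, H3K4me3 and SUZ12 peaks. They were the 4845 regions of these (11.6% of all regions, 36.2 Mb) that overlapped an H3K4me3 peak of the same clone by at least 1 bp and overlapped no SUZ12 peak of WT clone 410 or of MCM2-2A clones 439 and 442. Other classes of regions under 20000 bp served for comparison. SUZ12-positive regions (2705) overlapped both an H3K4me3 peak and a SUZ12 peak of any of the 3 clones, and unmarked regions (30625) overlapped neither. Another 13 regions overlapped SUZ12 alone and were set aside.

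All cells were of the male line E14JU (129/Ola background), kept with leukaemia inhibitory factor in serum medium. In MCM2-2A cells the helicase subunit MCM2, which hands parental histones to new DNA, is mutated where it binds histones, and these clones entered only through their SUZ12 lists. Histone modifications were mapped by native ChIP-seq after MNase digestion in an original experiment (2 WT replicates per mark) and in a rescue experiment (3 WT replicates), and SUZ12 was mapped in crosslinked, sonicated chromatin (3 replicates per clone), all with Drosophila chromatin as spike-in. Of 136 samples, 26 lay behind the 10 lists used, and each list had combined its replicates. Hence there was 1 value per region and list, no spread between replicates and no read depth, and WT was represented by 1 clone. Regions are not replicates of a condition, so the tests and the 95% Wilson intervals below cover counting error over regions only. As a check of the labelled cell type, the start sites of the stem cell genes Pou5f1, Nanog, Sox2, Zfp42, Klf4, Tdgf1 and Esrrb all had H3K4me3 and H3K27ac, whereas the fibroblast genes Col1a2, Pdgfra and Twist2 had H3K4me3 without H3K27ac, and the neuronal gene Rbfox3 had neither. The neuronal genes Tubb3 (80.0-fold H3K4me3 and 6.43-fold H3K27ac enrichment over local background), Map2 (81.1 and 3.45-fold) and Syn1 (41.6 and 3.30-fold) had both marks. H3K27ac was 3.34-fold at Esrrb, within the range of these neuronal genes, and 10.5-fold (Klf4) to 40.8-fold (Tdgf1) at the other stem cell genes. None of these genes lay at a member. The further markers chosen, Dppa5a, Col1a1, Thy1 and Snap25, had no start site in the RefSeq promoter table.

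H3K27me3 is deposited by Polycomb repressive complex 2 (PRC2), of which SUZ12 is a core subunit, and is associated with silent genes. H3K4me3 is deposited by MLL and SET1 enzymes and marks the start sites of active or poised genes, mostly where CpG dinucleotides are dense. Regions with both marks are called bivalent and are best known from the promoters of developmental regulators in embryonic stem cells, to which PRC2 binds through CpG-rich DNA. H3K27ac, which marks active promoters and enhancers, occupies the same lysine as H3K27me3 and cannot share it on one histone tail.

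Promoter sequences are shown first because the members differed from SUZ12-positive regions in how often they lay at promoters and in CpG content. Each is the 250 bases before a RefSeq start site (GRCm38.p6, the assembly behind mm10), written 5′ to 3′ along the gene with every CpG in capitals. The first set holds 3 promoters with strong H3K4me3 at the border of a member, namely Spdl1 (chr11:34833642-34833891, minus strand), which encodes a kinetochore adaptor for dynein, the tetraspanin gene Tspan9 (chr6:128143579-128143828, minus strand) and Txn1 (chr4:57956412-57956661, minus strand), which encodes thioredoxin. These held 20, 19 and 15 CpGs in 250 bases.
Spdl1: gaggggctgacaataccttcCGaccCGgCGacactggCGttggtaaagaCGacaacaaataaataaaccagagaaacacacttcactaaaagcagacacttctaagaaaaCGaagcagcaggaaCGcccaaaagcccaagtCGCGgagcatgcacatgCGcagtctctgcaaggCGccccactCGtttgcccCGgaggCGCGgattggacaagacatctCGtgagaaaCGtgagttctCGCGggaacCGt
Tspan9: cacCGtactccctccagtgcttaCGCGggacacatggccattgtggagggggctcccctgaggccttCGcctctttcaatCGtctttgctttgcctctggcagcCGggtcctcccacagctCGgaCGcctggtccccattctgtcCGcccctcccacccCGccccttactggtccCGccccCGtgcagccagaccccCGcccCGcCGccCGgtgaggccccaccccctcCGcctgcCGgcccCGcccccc
Txn1: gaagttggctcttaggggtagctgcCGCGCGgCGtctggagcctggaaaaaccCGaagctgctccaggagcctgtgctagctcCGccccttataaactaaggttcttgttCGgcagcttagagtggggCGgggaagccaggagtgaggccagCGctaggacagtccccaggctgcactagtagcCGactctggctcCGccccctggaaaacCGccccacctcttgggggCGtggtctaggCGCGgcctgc

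The second set holds promoters of meiotic genes. Sycp3 (chr10:88459337-88459586, plus strand) and Syce1 (chr7:140787855-140788104, minus strand) encode parts of the synaptonemal complex, and Hormad1 (chr3:95559429-95559678, plus strand) encodes a protein of meiotic chromosome axes. They held 12, 13 and 19 CpGs. The start sites of Syce1 and Hormad1 lay inside their members, and that of Sycp3 lay 147 bp outside in the original list and inside the H3K27me3 region of the rescue list.
Sycp3: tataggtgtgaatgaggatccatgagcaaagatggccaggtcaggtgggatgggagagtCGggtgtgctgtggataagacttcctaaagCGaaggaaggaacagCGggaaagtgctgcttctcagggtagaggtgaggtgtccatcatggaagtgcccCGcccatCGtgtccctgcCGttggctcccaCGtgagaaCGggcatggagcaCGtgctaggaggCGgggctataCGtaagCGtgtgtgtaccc
Syce1: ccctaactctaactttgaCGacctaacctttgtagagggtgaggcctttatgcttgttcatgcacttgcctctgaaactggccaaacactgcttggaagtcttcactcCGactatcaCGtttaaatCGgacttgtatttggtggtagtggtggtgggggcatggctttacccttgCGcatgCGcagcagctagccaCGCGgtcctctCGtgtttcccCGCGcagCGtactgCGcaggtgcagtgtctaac
Hormad1: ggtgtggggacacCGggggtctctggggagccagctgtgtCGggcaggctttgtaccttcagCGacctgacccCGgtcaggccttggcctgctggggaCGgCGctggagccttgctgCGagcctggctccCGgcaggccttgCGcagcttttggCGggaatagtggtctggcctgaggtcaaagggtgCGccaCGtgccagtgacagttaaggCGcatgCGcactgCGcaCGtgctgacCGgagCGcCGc

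The last set holds 2 promoters poor in CpG whose start sites lay inside a member. Acta2 (chr19:34255374-34255623, minus strand) encodes smooth muscle actin and Krt14 (chr11:100206031-100206280, minus strand) a basal keratin. They held 4 and 5 CpGs. H3K4me3 was weak at both members, 3.45-fold at Acta2 and 5.98-fold at Krt14. Rescue H3K27me3 was listed at the Krt14 member and not at the Acta2 member.
Acta2: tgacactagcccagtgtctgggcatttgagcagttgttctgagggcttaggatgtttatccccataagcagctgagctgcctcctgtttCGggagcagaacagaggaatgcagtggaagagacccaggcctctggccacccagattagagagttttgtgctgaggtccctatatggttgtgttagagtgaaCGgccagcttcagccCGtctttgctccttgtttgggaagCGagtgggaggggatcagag
Krt14: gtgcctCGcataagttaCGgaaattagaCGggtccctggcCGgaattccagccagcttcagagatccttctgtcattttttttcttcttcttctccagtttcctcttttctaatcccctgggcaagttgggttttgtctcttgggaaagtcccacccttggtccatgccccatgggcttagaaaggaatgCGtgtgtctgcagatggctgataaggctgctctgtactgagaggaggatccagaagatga

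Members were intermediate in length and in H3K27me3, and their H3K4me3 was weak. Their median length was 6491 bp (interquartile range 3481 to 10581), against 8571 bp in SUZ12-positive and 4841 bp in unmarked regions. On a rank fraction of H3K27me3 strength (0 for the weakest region of the list, 1 for the strongest), the median was 0.618 in members, 0.925 in SUZ12-positive and 0.405 in unmarked regions. The strongest H3K4me3 peak had a median fold enrichment over local background of 12.3 in members (interquartile range 6.75 to 26.1) and 61.2 in SUZ12-positive regions (42.6 to 78.9). These peaks were also narrow, with a median of 639 bp against 1904 bp. One H3K4me3 peak alone was present in 3832 members (79.1%), and for 1906 members (39.3%) the strongest peak was in the lower 50% of the H3K4me3 list. These values chose the classes, or come from the same lists, and are given as a description without a test. At the length limit, the longest members measured 19931 to 19981 bp and the next regions that met every other condition 20021 to 20081 bp.

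**Figure D1:**
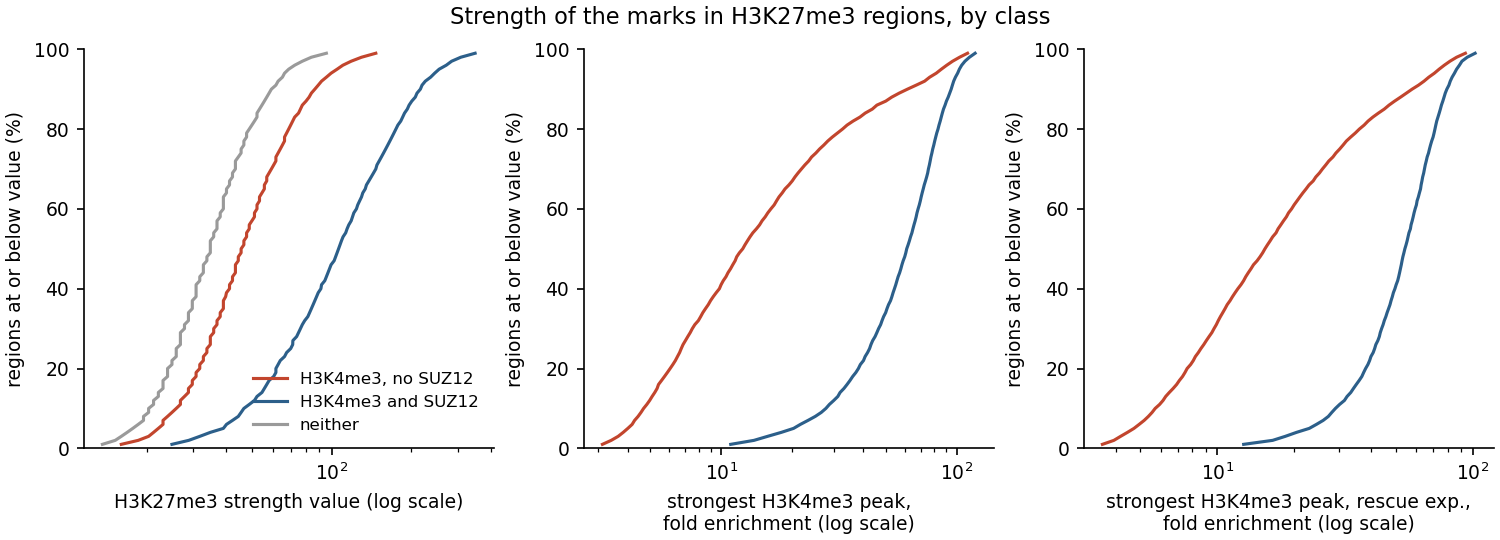
Cumulative distributions, in percent of regions, of H3K27me3 strength (left; the deposited last strength value, log scale), of the fold enrichment of the strongest H3K4me3 peak in the original experiment (middle, log scale) and in the rescue experiment (right, log scale, regions with a rescue peak), for members (red), SUZ12-positive (blue) and unmarked regions (grey, left panel only). The red curves lie between the others for H3K27me3 and far to the left of the blue curves for H3K4me3, with medians of 12.3 and 61.2 in the original and 15.4 and 54.2 in the rescue experiment.

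For most members the strongest H3K4me3 peak lay within the H3K27me3 region, and peaks that crossed its border were stronger by their median. The strongest peak was wholly inside in 3315 members (68.4%), crossed an edge in 1422 (29.3%) and spanned the whole region in 108 (2.23%). Median fold enrichment was 10.1 inside, 20.4 at an edge and 58.2 where the peak spanned the region, and the spanned regions had a median length of 271 bp. The peaks also differed in length, with medians of 569 bp inside, 842.5 bp at an edge and 1997.5 bp where they spanned the region. The part of length in their position was not tested. At an edge, the summit of the peak was inside the H3K27me3 region in 508 of 1422 members (35.7%), so most of these peaks had their summit on the adjoining DNA.

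The H3K27ac list was not used to choose members, but H3K4me3 was, and H3K27ac was more frequent where H3K4me3 was stronger. The difference from unmarked regions, which had no H3K4me3 peak, can therefore not be told apart from that choice. H3K27ac overlapped 1342 members (27.7%, 95% CI 26.5 to 29.0), against 9.15% of all H3K27me3 regions. The share was 43.0% (41.2 to 44.9) in SUZ12-positive regions and 1.64% (1.50 to 1.79) in unmarked regions. Members were thus acetylated less often than SUZ12-positive regions (odds ratio 0.507, adjusted p = 7.46e-41, Fisher's exact test, Benjamini-Hochberg over 13 tests) and more often than unmarked regions (odds ratio 23.0, with an adjusted p too small for double precision). Where H3K27ac was present, its strongest peak had a median fold enrichment of 4.59 in members and 4.77 in SUZ12-positive regions. In 1108 of the 1342 acetylated members (82.6%), an H3K27ac peak lay on the strongest H3K4me3 peak itself.

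**Figure D2:**
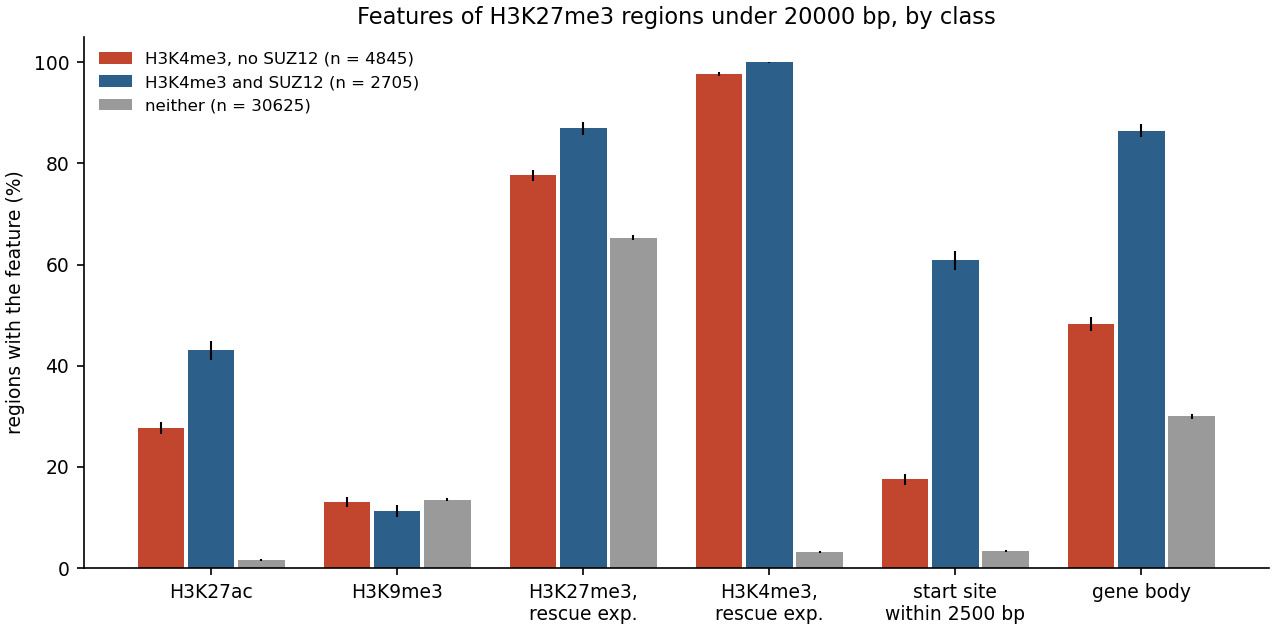
Percent of regions with each feature (y axis) for members (red, n = 4845), SUZ12-positive (blue, n = 2705) and unmarked regions (grey, n = 30625); whiskers are 95% Wilson intervals, and start sites were counted over 4680, 2630 and 29428 regions outside chromosome 18. Members lie between the other classes for H3K27ac (27.7%, 43.0% and 1.64%) and start sites (17.5%, 60.9% and 3.45%), while the 3 shares with H3K9me3 are close (13.0%, 11.3% and 13.6%).

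The difference in acetylation from SUZ12-positive regions moved with the strength of H3K4me3. Over both classes divided into 4 equal groups by their strongest H3K4me3 peak, the odds ratio for H3K27ac was 1.13 (adjusted p = 0.0896 by the Mantel-Haenszel test, which is not exact), in the opposite direction and short of the threshold. At 9.40 to 24.8-fold H3K4me3 enrichment, 26.8% of members (24.8 to 29.0) and 16.5% of SUZ12-positive regions (11.9 to 22.5) had H3K27ac. At 24.8 to 60.4-fold the shares were 40.8% (37.4 to 44.3) and 32.5% (29.8 to 35.3). In the highest group they were 47.4% (43.0 to 51.8) and 55.5% (52.8 to 58.1). The lowest group held 1868 members but 20 SUZ12-positive regions. This stratified comparison was added after the data were seen.

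**Figure D3:**
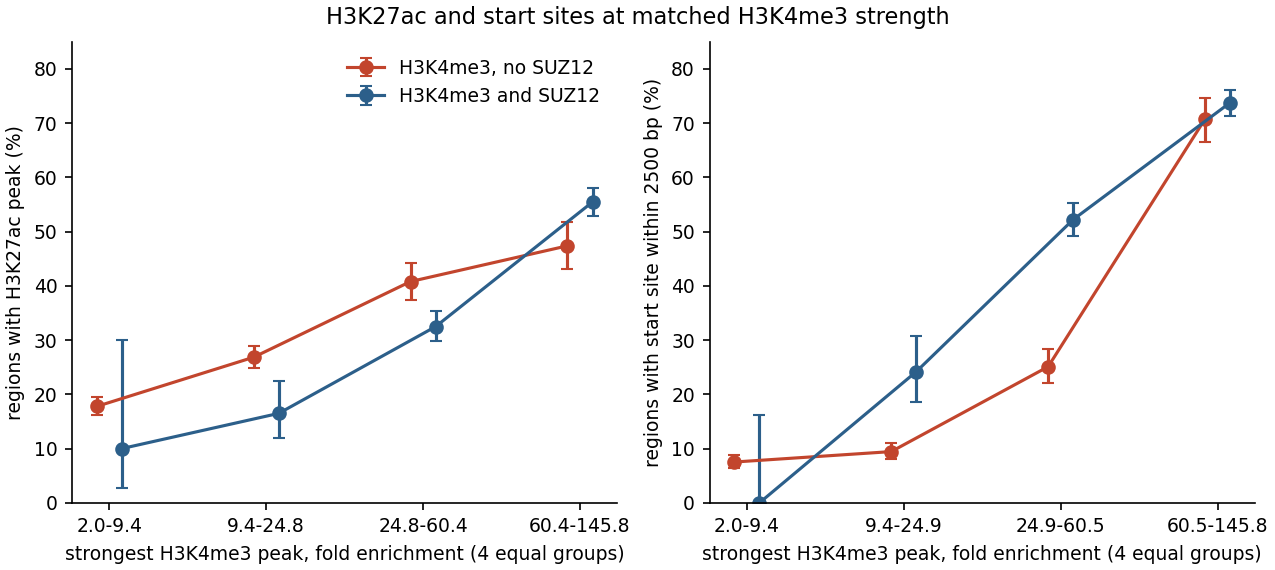
Percent of regions with an H3K27ac peak (left) and with a protein-coding start site within 2500 bp (right) in 4 equal groups of the strongest H3K4me3 peak's fold enrichment (x axis), for members (red) and SUZ12-positive regions (blue); whiskers are 95% Wilson intervals. In the middle 2 groups the red points lie above the blue for H3K27ac (26.8% and 16.5%, then 40.8% and 32.5%) and below them for start sites (9.45% and 24.2%, then 25.1% and 52.2%).

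Acetylation also extended beyond the regions. Counted on the whole of the strongest H3K4me3 peak, wherever it lay, H3K27ac was found at 1388 members (28.6%), of which 280 had none inside the H3K27me3 region. Among members with the peak at an edge, 624 of 1422 (43.9%) had H3K27ac on that peak, and for 243 it lay outside the region alone. Where the peak was inside, 689 of 3315 (20.8%) had H3K27ac on it. In SUZ12-positive regions the corresponding shares were 73.1% of 621 at an edge and 33.3% of 2019 inside.

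At 8 of 10 members named for their H3K4me3, H3K27ac lay on the H3K4me3 peak but not in the member. Over all 1211 members of the strongest of 4 equal H3K4me3 groups, it overlapped the member itself at 531 (43.8%). The 10 members with the highest rescue H3K4me3 among those also in the rescue H3K27me3 list had fold enrichments of 106 to 116 there and 77.7 to 145 in the original list. They included Spdl1, Tspan9, Tmem94, Tmem45a, Pcyox1, a prenylcysteine oxidase gene, the splicing factor gene Srsf9, the kinase gene Map3k3, and the shared promoter of Cep57l1 and the stress-response gene Sesn1. Tmem45a and Pcyox1 alone had H3K27ac inside the member (7.77 and 4.82-fold), yet all 10 had it on the H3K4me3 peak, at 5.46-fold (Tspan9) to 29.7-fold (Cep57l1 and Sesn1).

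At Spdl1 the member was 14471 bp long and ended 1149 bp upstream of the start site. Its H3K4me3 was 142-fold in the original and 113-fold in the rescue list, and H3K27ac of 22.2-fold lay on the H3K4me3 peak and not in the member. The Tspan9 member, 4411 bp long, ended 852 bp upstream, with H3K4me3 of 145 and 108-fold. Txn1 had the strongest H3K27ac that reached into a member, 41.6-fold, at a region of 2301 bp that ended 1479 bp upstream. All 3 genes thus had an H3K27me3 region next to a start site with H3K4me3 and H3K27ac.

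**Figure D4:**
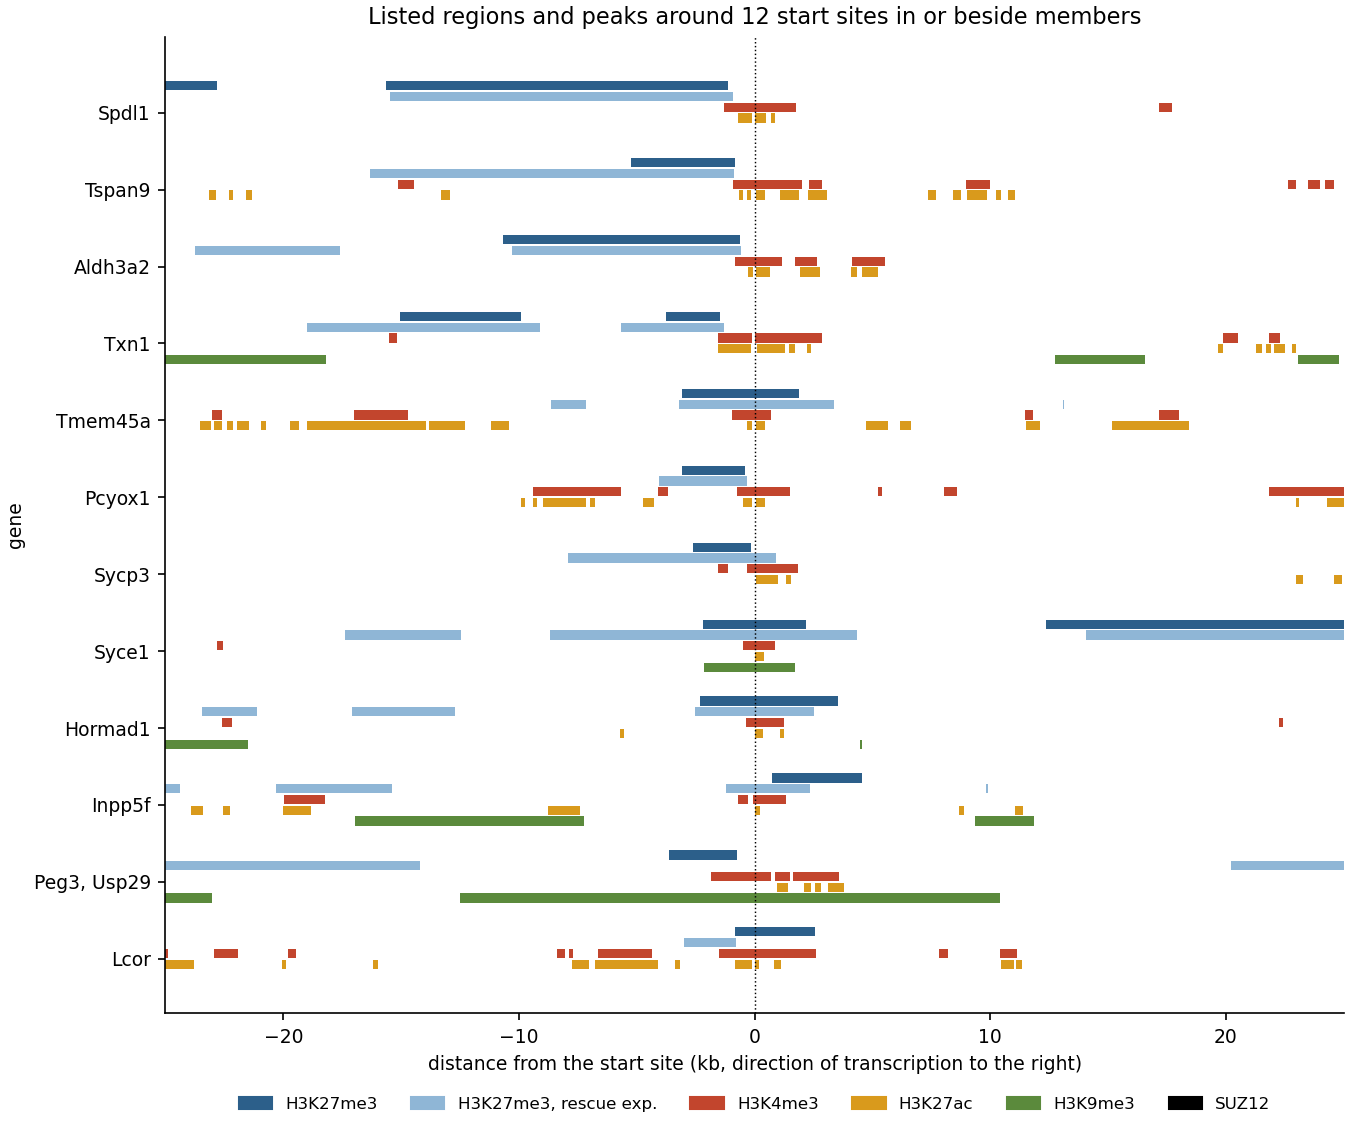
Extent of listed regions and peaks (rows of bars by list) within 25 kb of the start sites of 12 genes or gene pairs at members, with distance from the start site in kb on the x axis and transcription running to the right. The H3K27me3 region of the original list (dark blue) stops short of the start site at Spdl1, Tspan9, Aldh3a2, Txn1, Pcyox1 and Sycp3 and covers it at Tmem45a, Syce1, Hormad1 and Lcor; no SUZ12 peak (black) lies in any of these windows.

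The side of the start site was examined where the strongest H3K4me3 peak held start sites of 1 strand. The centre of the H3K27me3 region lay downstream of the start site in 43.0% of 540 members (38.9 to 47.2) and in 52.2% of 1349 SUZ12-positive regions (49.5 to 54.8). For peaks at an edge the shares were 34.9% of 261 members (29.3 to 40.8) and 53.0% of 349 SUZ12-positive regions (47.8 to 58.2). Most members with such a peak therefore had the larger part of their H3K27me3 upstream of the gene. This comparison was not tested.

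Members lay at protein-coding promoters less often than SUZ12-positive regions. A start site was within 2500 bp of 820 of 4680 members (17.5%, 16.5 to 18.6), against 11.2% of all H3K27me3 regions outside chromosome 18. The share was 60.9% (59.0 to 62.7) in SUZ12-positive regions (odds ratio 0.137, adjusted p = 1.27e-309, Fisher's exact test) and 3.45% (3.25 to 3.66) in unmarked regions (odds ratio 5.95, adjusted p = 2.84e-245). H3K4me3 marks start sites, and unmarked regions were chosen to have no H3K4me3 peak. The difference from unmarked regions can therefore not be told apart from that choice. Start sites were those of the 17491 of 21896 protein-coding genes in the RefSeq promoter table, so the shares are lower limits. With either end of every protein-coding gene in place of start sites, 25.4% of members, 76.6% of SUZ12-positive and 6.33% of unmarked regions were at a gene end, beside 16.0% of all regions. Within the 4 H3K4me3 strength groups the odds ratio against SUZ12-positive regions was 0.462, and in the highest group a start site was near 70.7% of members (66.5 to 74.6) and 73.8% of SUZ12-positive regions (71.4 to 76.1).

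The weak and the strong H3K4me3 of members lay at different places. From the weakest to the strongest group of members by H3K4me3 (about 1211 each), a start site was near 6.88%, 8.63%, 10.0% and 44.6%. Over the same groups H3K27ac was present at 17.3%, 21.6%, 28.1% and 43.8%, and H3K9me3 was present at 14.4%, 14.0%, 13.0% and 10.6%. Members with a start site in reach had a median H3K4me3 of 48.3-fold and H3K27ac in 34.5% (31.3 to 37.8), against 10.8-fold and 26.0% (24.7 to 27.4) in those without.

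An end of a gene of any kind was within 2500 bp of 44.7% of members, between the 86.2% of SUZ12-positive and the 17.4% of unmarked regions. Neither end of a gene of any kind was within 2500 bp of 2679 members (55.3%), of which 1102 lay in the body of a protein-coding gene and 1577 outside such genes. These distal members were defined by gene ends alone. Of the 2579 outside chromosome 18, 75 (2.91%) still had a protein-coding start site within 2500 bp, all of them in gene bodies. The distal members had H3K4me3 of 10.2-fold (median) and H3K27ac in 25.0% (23.4 to 26.7), and 97.0% of them had H3K4me3 in the rescue list too. H3K9me3 was present at 7.26% (5.87 to 8.94) of the distal members in gene bodies and at 18.1% (16.3 to 20.0) of those outside. Among members by H3K27me3 strength, the one ranked 1, chr5:151686120-151693010, lay 34912 bp from the nearest end of a protein-coding gene and had H3K4me3 of 5.41-fold in the original and 9.11-fold in the rescue list. The one ranked 3 was at Dhx40, a helicase gene, with H3K4me3 of 98.7 and 85.9-fold, and a member that tied with the last of the 10 in strength lay at the histone genes H1f4 and H2bc6.

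Both marks were listed again at most members in the rescue experiment, which used further samples of clone 410. The rescue H3K27me3 list covered 930 Mb, against 363 Mb in the original list. The part of this wider cover in the overlaps was not tested. Rescue H3K27me3 covered at least 50% of the region in 75.1% of members, 86.0% of SUZ12-positive and 63.1% of unmarked regions. H3K27me3 was again listed at 3760 members (77.6%, 76.4 to 78.8), against 68.6% of all regions. The share was 86.9% in SUZ12-positive regions (odds ratio 0.524, adjusted p = 2.38e-23, Fisher's exact test) and 65.3% in unmarked regions (odds ratio 1.84, adjusted p = 1.87e-67). H3K4me3 was again listed at 4730 members (97.6%), against 25.2% of all regions, and at all 2705 SUZ12-positive regions (adjusted p = 1.24e-22, Fisher's exact test). Both classes were chosen by H3K4me3 of the same clone, so their excess over all regions follows largely from that choice. In 3674 members (75.8%, 74.6 to 77.0) both marks were listed in both experiments. The 115 members without rescue H3K4me3 were mostly weak, since 92.2% of the weakest H3K4me3 group had a rescue peak and 99.3 to 99.7% of the other groups did.

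The strength of the rescue marks followed the same order. Mean rank fraction of rescue H3K4me3 was 0.631 ± 0.215 (SD over 4730 regions) in members and 0.878 ± 0.0778 in SUZ12-positive regions (difference -0.247, adjusted p = 1.18e-05 by permutation). For rescue H3K27me3 it was 0.722 ± 0.207 (3760 regions) in members, 0.889 ± 0.128 in SUZ12-positive and 0.652 ± 0.218 in unmarked regions (differences of -0.167 and 0.0708, adjusted p = 1.18e-05 for each by permutation, from the smallest p that 100000 resamples allow). The last difference depended on the strength value, and with another deposited column it was -0.0311. The rescue region had a median length of 12506 bp for members, 11076 bp for SUZ12-positive and 19461 bp for unmarked regions. In each class this was above the median length of the regions themselves. It held a WT SUZ12 peak for 196 of 3760 members (5.21%), 72.0% of SUZ12-positive and 4.12% of unmarked regions with a rescue region. SUZ12 chose these classes, so the contrast with SUZ12-positive regions follows largely from that choice.

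H3K9me3, the mark of constitutive heterochromatin, did not set the members apart in a stable way. It overlapped 631 members (13.0%, 12.1 to 14.0), against 15.0% of all regions, 11.3% of SUZ12-positive (odds ratio 1.18, adjusted p = 0.0313, Fisher's exact test) and 13.6% of unmarked regions (odds ratio 0.954, adjusted p = 0.319). The first comparison lost its call or its direction under several settings. Leaving out the SUZ12 lists of the MCM2-2A clones gave an odds ratio of 0.938 (adjusted p = 0.422, Fisher's exact test).

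Members overlapped no SUZ12 peak by choice, so their distance to SUZ12 is a description only. It was not measured for the other classes. The nearest peak of any clone was a median of 86685 bp away (interquartile range 34362 to 207168), and 287 members (5.92%) had one within 10000 bp. Of the 7550 regions under 20000 bp with H3K4me3, 1735 had SUZ12 in all 3 clones, 350 in both MCM2-2A clones alone, 268 in clone 442 alone, 183 in clone 439 alone and 41 in WT alone. Of the 5 members farthest from SUZ12, 3 lay on the X chromosome and 2 on chromosome 1. The first was chrX:129343490-129356830, with the nearest peak 4323711 bp away, and the members on chromosome 1 were 3286945 and 2779717 bp away. The X chromosome held 95 members (1.96%) and the Y chromosome none. On autosomes lay 4750 of 4845 members, 2646 of 2705 SUZ12-positive and 29248 of 30625 unmarked regions. A difference between classes by chromosome was not tested.

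In all, 874 of 17491 protein-coding genes (5.00%) had a start site within 2500 bp of a member and 1760 (10.1%) within 2500 bp of a SUZ12-positive region, with 14 genes in both. No SUZ12 peak was within 2500 bp of 807 of the 874 start sites. Developmental regulators are the classic bivalent genes, and most of those listed had a SUZ12 peak in the window, which the choice of members leaves out. Their counts follow from that choice, and nothing is read from them. Of 22 Hox genes, 33 neural, 24 mesoderm, 15 endoderm and 16 trophoblast genes with a start site in the table, 0 were at a member, and of 50 secreted ligands 1 was (Gdf1). At SUZ12-positive regions under 20000 bp there were 0, 3, 0, 2, 2 and 10 of these, and a SUZ12 peak of any clone lay in the window of 22, 33, 22, 12, 13 and 39. The gene lists were chosen with results of these data known and are described by counts alone.

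Germline genes were present at members at 6 of 34 (17.6%), beside the 5.00% of all genes. All 6 had no SUZ12 peak in the window, which follows largely from the choice of members, since 807 of all 874 genes at members had none. Of the 34 germline genes, 13 had a SUZ12 peak in the window. At SUZ12-positive regions there were 4 (11.8%), beside 10.1% of all genes. At Sycp3, H3K4me3 was 73.6-fold in the original and 64.4-fold in the rescue list, and H3K27ac of 13.7-fold lay on the peak, outside the member as the original list drew it. In the rescue list the H3K27me3 region at Sycp3 reached 893 bp past the start site and covered most of that H3K27ac peak, which ran from 50 to 1007 bp downstream. Syce1 had H3K4me3 of 56.9 and 48.8-fold inside the member and H3K27ac of 5.14-fold, and H3K9me3 also overlapped this member, which ranked 34 among members in H3K27me3 strength. Hormad1 had 21.0 and 19.8-fold with H3K27ac of 2.92-fold. At Mov10l1, a helicase gene of the piRNA pathway, H3K4me3 was 15.2 and 24.4-fold, with no H3K27ac and no H3K27me3 in the rescue list. The 4 genes thus differed in acetylation.

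Among imprinted genes, which are expressed from one parental allele, 4 of 32 were at a member (12.5%), beside the 5.00% of all genes, and the same number, 4, were at SUZ12-positive regions. Peg3 and Usp29 share a promoter, where H3K4me3 was 68.9 and 45.3-fold. H3K9me3 overlapped that member and the one at Nnat, neither had H3K27ac in the member or on its strongest H3K4me3 peak, and neither had rescue H3K27me3. Inpp5f differed, with H3K4me3 of 107 and 81.7-fold, H3K27ac of 7.43-fold on the peak and no H3K9me3. Its member ran from 735 to 4565 bp downstream of the start site. The list names genes and does not tell which of their promoters are imprinted. For Polycomb subunits the count was 4 of 31 (12.9%) at members, beside the 5.00% of all genes, and also 4 at SUZ12-positive regions. Those at members were the PRC2 accessory gene Lcor (66.8-fold H3K4me3, 8.76-fold H3K27ac), the PRC1 subunit gene Pcgf3 (29.7-fold, no H3K27ac), the histone chaperone gene Rbbp7 (7.04-fold, 12.7-fold) and Ezh1, a PRC2 methyltransferase gene (6.68-fold, 4.44-fold). At Rbbp7 and Ezh1 the H3K4me3 peak lay inside a member that was 1602 and 2397 bp outside the gene, so it was not at the start site. The H3K27ac of the Rbbp7 member was not on that peak. The Ezh1 member also had H3K9me3 and no rescue H3K27me3. Nr0b1, 1 of 18 pluripotency genes, had H3K4me3 of 43.9 and 40.9-fold next to a member of 2391 bp that ended 245 bp upstream. That member had no rescue H3K27me3.

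Other groups are given by their counts, to be read beside the 5.00% of all genes at members and 10.1% at SUZ12-positive regions. Several of the shares, such as that of the Zfp genes, were near 5.00%, and none was tested. Members held 16 of 329 Zfp zinc finger genes (4.86%), of which Zfp382 (126-fold) and Zfp688 (123-fold) had the strongest H3K4me3, 21 of 296 solute carriers (7.09%), 9 of 97 voltage-gated ion channels (9.28%), 2 of 61 ribosomal protein genes (3.28%), 2 of 62 histone genes (3.23%) and 1 of 23 interferon genes (Irf7). Olfactory and vomeronasal receptor genes were at members in 9 of 940 (0.957%) and 3 of 321 (0.935%), with Olfr1339 at 34.6-fold and Vmn2r57 at 35.7-fold H3K4me3. No gene of either family was at a SUZ12-positive region. Of 16 lineage priming and 42 Wnt, Bmp and Fgf pathway genes, members held Lef1 in both lists and Bmpr1a in the second, each with a SUZ12 peak in its window. The small groups of fibroblast genes (2 of 13, Col6a1 and Acta2), collagens (3 of 35), keratins (2 of 36), glutamate and GABA receptors (2 of 32) and adhesion G protein-coupled receptors (1 of 20) included Acta2 with H3K4me3 of 3.45-fold and Col6a1 with 15.1-fold. No start site of 15 2-cell-like genes, 14 demethylase and H3K4 methylation enzyme genes or 6 cyclin-dependent kinase inhibitors was at a member, and the table held no start site for the 57 clustered protocadherins.

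The promoters at members were poorer in CpG than those at SUZ12-positive regions. The observed to expected CpG ratio of the 300-bp promoter nearest to the H3K4me3 summit was 0.570 ± 0.294 (SD, 818 promoters) at members and 0.706 ± 0.248 (1600 promoters) at SUZ12-positive regions, a difference of -0.136 (adjusted p = 1.18e-05 by permutation). PRC2 binds through CpG-rich DNA and SUZ12 chose the classes, so this difference cannot be told apart from that choice. With the upper 50% of H3K4me3 peaks it was -0.0854, and it was not compared at matched H3K4me3 strength. A ratio under 0.4 was found in 33.3% and 13.3%, respectively. Over all 21262 promoters of protein-coding genes the mean was 0.542 and 39.4% were under 0.4. Of the sequences above, Spdl1 stood at 1.07, Hormad1 at 0.713 and Sycp3 at 0.666, and Krt14 and Acta2 were at 0.286 and 0.270.

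**Figure D5:**
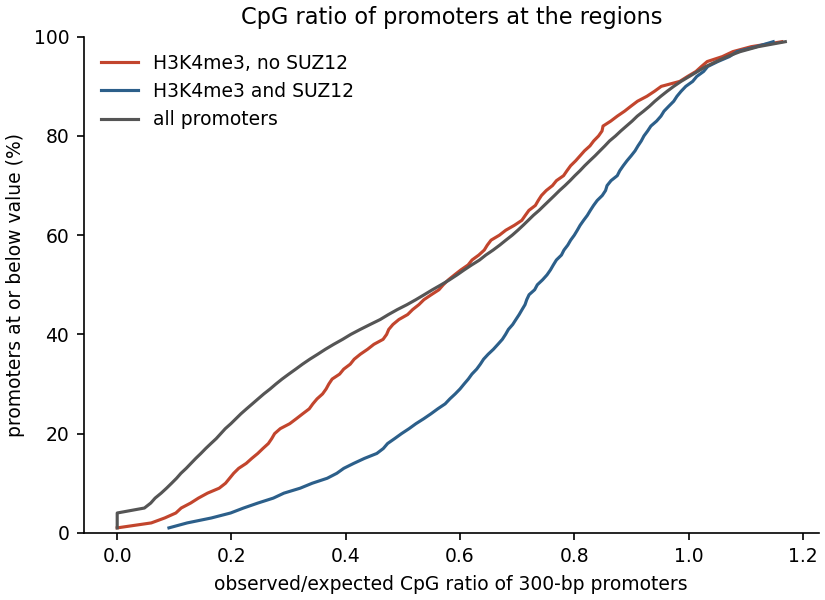
Cumulative distribution, in percent of promoters, of the observed to expected CpG ratio for promoters at members (red, n = 818), at SUZ12-positive regions (blue, n = 1600) and for all protein-coding promoters (dark grey, n = 21262). The red curve lies near the dark grey curve, with medians of 0.571 and 0.567, and the blue curve lies to the right, with a median of 0.735.

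Short sequence motifs were searched on both strands of the 300-bp promoters, and motifs with CG track CpG content in part. The TATA box (TATAAA) was in 10.9% of promoters at members (8.93 to 13.2), 6.31% at SUZ12-positive regions (5.22 to 7.61) and 12.6% of all promoters. Shares at members and over all promoters were 36.7% and 38.2% for CCAAT, 16.9% and 18.7% for the ETS core CCGGAA, 11.1% and 9.74% for TGCGCA (a part of the NRF1 site), 9.54% and 7.84% for the E-box CACGTG, 8.07% and 8.49% for TGACGT (a part of the cyclic AMP response element), 7.09% and 5.95% for GCGGGAA (E2F type) and 5.13% and 6.24% for AAGATGG (YY1 type). Among the meiotic promoters shown, CACGTG was in Sycp3 and Hormad1 and TGCGCA in Syce1 and Hormad1. These are matches of letters and were not tested.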

How the data were processed

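Peak lists were used as deposited by the authors. Build mm10 and 4 tools are named in the submitters' processing notes without a role, MACS2 2.1.0, Picard 2.20.7, BWA 0.7.15 and cutadapt 2.5. Narrow peaks (H3K4me3, H3K27ac, SUZ12) were deposited with fold enrichment (a ratio over local background) and -log10 q, and those of SUZ12 had passed an irreproducible discovery rate filter. Broad regions (H3K27me3, H3K9me3) were deposited with unnamed strength values (scores). The caller and the scale of these values are unknown here, so the last value served for ranks within a list. Depth was unknown.

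From these, overlaps of at least 1 bp, distances and rank fractions were computed (pandas, numpy; all positions count from 1). Shares were compared by two-sided Fisher's exact tests and means by two-sided permutation tests (100000 resamples, smallest p 1e-05), with Benjamini-Hochberg adjustment over 13 tests and a threshold of 0.05. Code was tested on simulated intervals and counts. Gene positions and promoters came from RefSeq (GRCm38.p6). No start sites of chromosome 18 were used, and start sites replaced the planned gene ends because the promoter table gives strand. The members, classes, gene lists and motifs were chosen with earlier results of these data known. Named regions and genes were the 10 members with the highest rescue H3K4me3 among those in the rescue H3K27me3 list, the 10 with the highest H3K27me3 strength, the 5 with the strongest H3K27ac, the 5 with the strongest H3K4me3 and no H3K27ac, the 5 longest, up to 4 genes per list by H3K4me3, and the 5 farthest from SUZ12. Some of these are not described.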

Additional observations from a re-analysis of the deposited data

How the results depend on the processing

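Of 152 alternative values over the 13 tests, 138 kept their direction and their side of the threshold, including every one run for rescue H3K4me3, start sites, CpG ratio and rescue H3K27me3 overlap. Most of the others concerned H3K9me3. Against SUZ12-positive regions its odds ratio was 1.10 with H3K4me3 peaks at least 50% inside the region and 1.08 with the upper 50% of H3K4me3 peaks (neither past the threshold), 0.938 with SUZ12 of clone 410 alone, 0.858 with no length limit and 0.921 within 4 H3K4me3 strength groups. Against unmarked regions it passed the threshold at 0.862 with the upper 50% of H3K4me3 peaks, 0.887 with SUZ12 of clone 410 alone, 0.827 under 10000 bp, 0.851 within 4 length groups, 0.870 where rescue H3K27me3 covered at least 50% and 0.921 with the rescue H3K9me3 list, and reversed to 1.13 with no length limit. The difference in rescue H3K27me3 strength from unmarked regions reversed to -0.0311 with another strength column. The H3K27ac odds ratio against SUZ12-positive regions reversed to 1.13 within 4 H3K4me3 strength groups and was 0.440 at its lowest. Some values kept their call but moved by over 1.5 times. With the upper 50% of H3K4me3 peaks the difference from SUZ12-positive regions in rescue H3K4me3 strength went from -0.247 to -0.124 and in CpG ratio from -0.136 to -0.0854 (-0.0892 with SUZ12 of clone 410 alone). With another strength column that in rescue H3K27me3 strength went from -0.167 to -0.0963, and with the upper 50% of H3K27ac peaks the H3K27ac odds ratio against unmarked regions went from 23.0 to 47.0. That for rescue H3K4me3 overlap against SUZ12-positive regions was 0.00757 and at most 0.0376. The causes were not tested.

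Against SUZ12-positive regions the odds ratio for start sites ranged from 0.102 to 0.462, the highest within 4 H3K4me3 strength groups. That stratification, regions of at least 1000 bp and the ends of all genes were added after the data were seen.

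No paired analysis was possible because each list combines its replicates, so leaving out a replicate could not be done either. Neighbouring regions were treated as independent. SUZ12 absence means no listed peak at an unknown depth.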
